A study of Mus musculus with 27 samples.

Results

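The 8 genes described here are Cd79a, Cd79b, Cd22, Blk, Ms4a1, Pax5, Fcer2a and Cr2, which are used as markers of mature B cells. Cr2 varied little with the others in these libraries. They were picked out by symbol, with earlier results of these data known, from the 21742 gene symbols of a table of linear RNA in mouse lung. All 8 were found, and all 8 passed the filter on low values (at least 1 TPM in at least 5 libraries), as did 17437 genes in all. TPM is a share of transcripts corrected for transcript length, so levels of different genes can be set side by side.

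The samples were 27 libraries of total RNA, taken here as 1 per mouse since each was labelled as a left lobe with its own number. The mice were BALB/c AnNHsd, 87 days old, and the RNA came from the left lobe of the lung. The 6 Dex_CDGHDM mice were sensitized in the lung with house dust mite extract plus cyclic di-GMP, a bacterial second messenger used as a mucosal adjuvant, and then had 3 injections of the glucocorticoid dexamethasone at 3 mg/kg into the peritoneum, on days 11, 18 and 25 of a protocol of 35 days. The 6 AM155 mice were given an antisense oligonucleotide to miR-155, an immune-cell microRNA, in TheraSilence lipid nanoparticles, injected 3 times into a vein at 2 mg/kg with that same timing. The labels do not say in words that AM155 mice were sensitized, and they describe no group given empty nanoparticles or a vehicle for dexamethasone. The 10 CDG_HDM mice were sensitized and not treated further, and the 5 Saline mice were unsensitized. Libraries are named here by group and by the number in their title.

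B cells recognize antigen through the B cell receptor, a membrane immunoglobulin that signals through the paired chains Ig-alpha (Cd79a) and Ig-beta (Cd79b). Kinases such as Blk carry the signal inward, CD22 holds it back, and CD21 (Cr2) lowers the threshold for antigen that carries complement. CD20 (Ms4a1) sits in the membrane of B cells, CD23 (Fcer2a) is the low-affinity receptor for IgE, and Pax5 is the transcription factor that keeps B cell identity. When B cells become antibody-secreting plasma cells they shut down Pax5 and many of its targets. In allergic lungs B cells supply antibody, IgE included, and can gather in lymphoid follicles beside the airways.

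Every library held lung RNA and B cell RNA. Sftpc, the surfactant protein of alveolar type 2 cells, lay between 12703 and 24047 TPM, and the 8 B cell genes were above 0 in each of the 27 libraries. The linear table summed to between 542264 and 858506 TPM per library, so part of the TPM scale lay outside both deposited tables. That part was 13.0% to 27.9% in Dex_CDGHDM, 13.8% to 27.7% in AM155, 15.2% to 32.8% in CDG_HDM and 9.57% to 11.1% in Saline libraries. Because it moves with the groups and shifts every gene's TPM, other scalings and ratios between genes within a library were computed too. TPM carries no read count, so the depth behind a value is unknown. The libraries AM155 5, AM155 6 and Dex_CDGHDM 4 stood apart, with a single circular RNA (Sftpc) above 100000 TPM.

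Cr2 had the highest level of the 8 genes and Blk the lowest. Averaged over the 4 groups with equal weight, the levels were 107 TPM for Cr2, 43.0 TPM for Cd79a, 41.6 TPM for Cd79b, 29.9 TPM for Fcer2a, 26.7 TPM for Cd22, 12.7 TPM for Pax5, 11.1 TPM for Ms4a1 and 7.16 TPM for Blk. Some neighbours in that order were clearly apart. Cr2 exceeded Cd79a in 26 of 27 libraries, Cd79b exceeded Fcer2a in 26, and Cd22 exceeded Pax5 and Ms4a1 exceeded Blk in all 27. Other neighbours changed places from library to library, with Cd79a above Cd79b in 18, Fcer2a above Cd22 in 19 and Pax5 above Ms4a1 in 17 of 27. Cr2 made up 22.6% to 56.6% of the summed TPM of the 8 genes, with a median of 39.4%. It followed the other 7 genes only weakly across libraries (Pearson r 0.18 to 0.33), so its level is not read as a level of B cells.

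**Figure D1:**
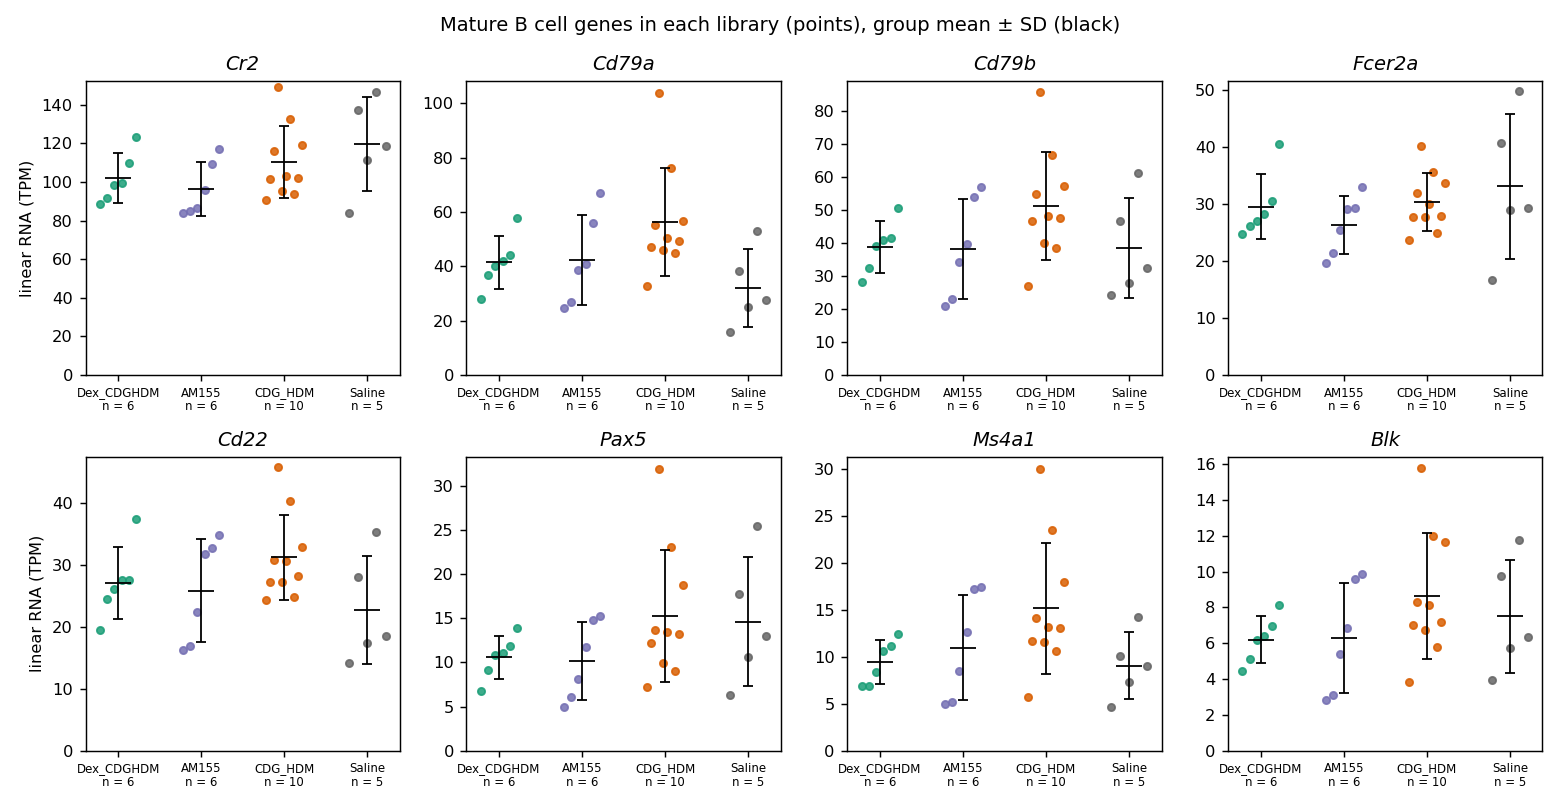
Linear RNA of each of the 8 mature B cell genes in TPM, 1 point per library, with the group mean and SD in black and groups from left to right as Dex_CDGHDM, AM155, CDG_HDM and Saline. The groups overlap for all 8 genes, Cd79a and Cd22 are higher in CDG_HDM than in Saline by the test, and Cr2 varies least, from 83.9 to 149 TPM.

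The first comparison asks what sensitization did to these genes. Cd79a and Cd22 rose in CDG_HDM lungs relative to Saline lungs, and the other 6 did not pass the test. Cd79a, the Ig-alpha chain, was 1.80-fold and Cd22, the inhibitory receptor, 1.41-fold as high. The estimates of the other 6 ran from 0.64 for Ms4a1 to -0.11 for Cr2 on the log2 scale. The test was limma on log2(TPM + 1) over all 17437 genes, with p-values adjusted by Benjamini-Hochberg and a threshold of 0.05. It called 32.2% of all genes, 9.35% higher and 22.8% lower, so 2 of 8 called higher stands beside that background and no more is read from the count. The median log2 change was 0.30 over the 8 genes and -0.10 over all genes tested. Of the genes called, 29.1% were higher in CDG_HDM, against 51.0% by median of ratios, 46.1% after quantile normalization and 62.8% at 1 common sum, where the median over all genes was 0.01, -0.01 and 0.04.

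The signalling chains of the receptor come first. Cd79a had a lowest, median and highest level of 27.9, 40.9 and 57.7 TPM in Dex_CDGHDM, 24.6, 39.7 and 67.0 TPM in AM155, and 32.8, 49.9 and 104 TPM in CDG_HDM lungs, against 15.6, 25.2, 27.5, 38.1 and 53.1 TPM in the 5 Saline lungs. All 10 CDG_HDM libraries lay above the Saline mean, although the groups overlapped, since Saline 8 reached 53.1 TPM. Cd79a averaged 56.3 ± 20.0 TPM in CDG_HDM and 31.9 ± 14.3 TPM in Saline lungs (SD, n = 10 and 5). The log2 change was 0.85 ± 0.24 (SE, adjusted p = 0.00698 by limma), and it held when any 1 library was left out, with adjusted p between 0.00143 and 0.0393. In bulk lung RNA, more cells that make Cd79a, of whatever kind, and more Cd79a RNA per cell cannot be told apart.

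Cd79b, the partner chain, ran at 28.1, 40.0 and 50.7 TPM in Dex_CDGHDM, 21.01, 36.9 and 57.0 TPM in AM155 and 26.96, 47.7 and 85.8 TPM in CDG_HDM lungs (lowest, median, highest), against 24.3, 27.8, 32.2, 46.5 and 61.1 TPM in Saline lungs. The groups overlapped, with 8 of 10 CDG_HDM libraries above the Saline mean. The log2 change between CDG_HDM and Saline was 0.42 ± 0.23 (SE), with a 95% interval from -0.05 to 0.90, and did not pass the test (adjusted p = 0.165 by limma). It passed when the linear table was rescaled to 1 common sum (0.58, adjusted p = 0.0386).

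Next come the regulators of the signal. Cd22 had 19.5, 26.8 and 37.4 TPM in Dex_CDGHDM, 16.3, 27.04 and 34.9 TPM in AM155 and 24.4, 29.5 and 45.9 TPM in CDG_HDM lungs, against 14.2, 17.4, 18.6, 28.2 and 35.3 TPM in Saline lungs. All 10 CDG_HDM libraries were above the Saline mean, and 2 Saline libraries reached into the CDG_HDM range. It averaged 31.3 ± 6.90 TPM in CDG_HDM and 22.7 ± 8.77 TPM in Saline lungs (SD, n = 10 and 5), a log2 change of 0.49 ± 0.19 (SE, adjusted p = 0.0453 by limma). That call is close to the threshold. It was lost with no filter on low values (adjusted p = 0.0643), with robust variance moderation (adjusted p = 0.0618), and without any 1 of CDG_HDM 3, 4, 8, 13 and 14 or Saline 2, 4 and 5, where adjusted p ran up to 0.150.

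Blk, a Src-family kinase of B cells, had the lowest levels of the 8. They were 4.44, 6.28 and 8.11 TPM in Dex_CDGHDM, 2.84, 6.11 and 9.87 TPM in AM155 and 3.85, 7.67 and 15.8 TPM in CDG_HDM lungs, against 3.93, 5.75, 6.37, 9.73 and 11.7 TPM in Saline lungs. Of the CDG_HDM libraries 5 of 10 lay above the Saline mean, and the log2 change of 0.18 ± 0.25 (SE) did not pass the test (adjusted p = 0.617 by limma).

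Ms4a1, the CD20 gene, had 6.86, 9.54 and 12.4 TPM in Dex_CDGHDM, 5.00, 10.6 and 17.4 TPM in AM155 and 5.68, 13.1 and 30.0 TPM in CDG_HDM lungs, against 4.66, 7.31, 9.00, 10.1 and 14.2 TPM in Saline lungs. In CDG_HDM lungs 9 of 10 libraries were above the Saline mean. Its log2 change of 0.64 ± 0.28 (SE), with a 95% interval from 0.07 to 1.22, missed the adjusted threshold (adjusted p = 0.0814 by limma). Under the 3 other scalings it passed, with a log2 change of 0.75 by median of ratios (adjusted p = 0.0316), 0.73 after quantile normalization (adjusted p = 0.0354) and 0.79 at 1 common sum (adjusted p = 0.0250). It also passed without CDG_HDM 10 (adjusted p = 0.0237) or without Saline 8 (adjusted p = 0.0417).

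Pax5, the identity factor, stood at 6.75, 11.0 and 13.8 TPM in Dex_CDGHDM, 4.95, 9.91 and 15.3 TPM in AM155 and 7.18, 13.3 and 32.0 TPM in CDG_HDM lungs, against 6.35, 10.6, 13.0, 17.8 and 25.5 TPM in Saline lungs. The ranges overlapped almost wholly, and 3 of 10 CDG_HDM libraries were above the Saline mean. The log2 change was 0.07 ± 0.28 (SE), with a 95% interval from -0.50 to 0.64 (adjusted p = 0.878 by limma).

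The receptors for IgE and for complement complete the set. Fcer2a had 24.7, 27.7 and 40.6 TPM in Dex_CDGHDM, 19.7, 27.3 and 33.0 TPM in AM155 and 23.6, 28.9 and 40.3 TPM in CDG_HDM lungs, against 16.6, 28.9, 29.3, 40.8 and 50.0 TPM in Saline lungs. Saline libraries held both the lowest and the highest value of all 27. Its log2 change was -0.05 ± 0.17 (SE), with a 95% interval from -0.39 to 0.29 (adjusted p = 0.849 by limma). The sign turned positive under all 3 other scalings, without passing the test.

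Cr2 had 88.4, 99.0 and 123 TPM in Dex_CDGHDM, 83.9, 91.1 and 117 TPM in AM155 and 90.8, 102 and 149 TPM in CDG_HDM lungs, against 84.1, 112, 119, 138 and 147 TPM in Saline lungs. The groups overlapped over most of their range, and 2 of 10 CDG_HDM libraries were above the Saline mean. The log2 change was -0.11 ± 0.12 (SE), with a 95% interval from -0.35 to 0.14 (adjusted p = 0.519 by limma). It turned slightly positive by median of ratios (0.01) and at 1 common sum (0.05).

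**Figure D2:**
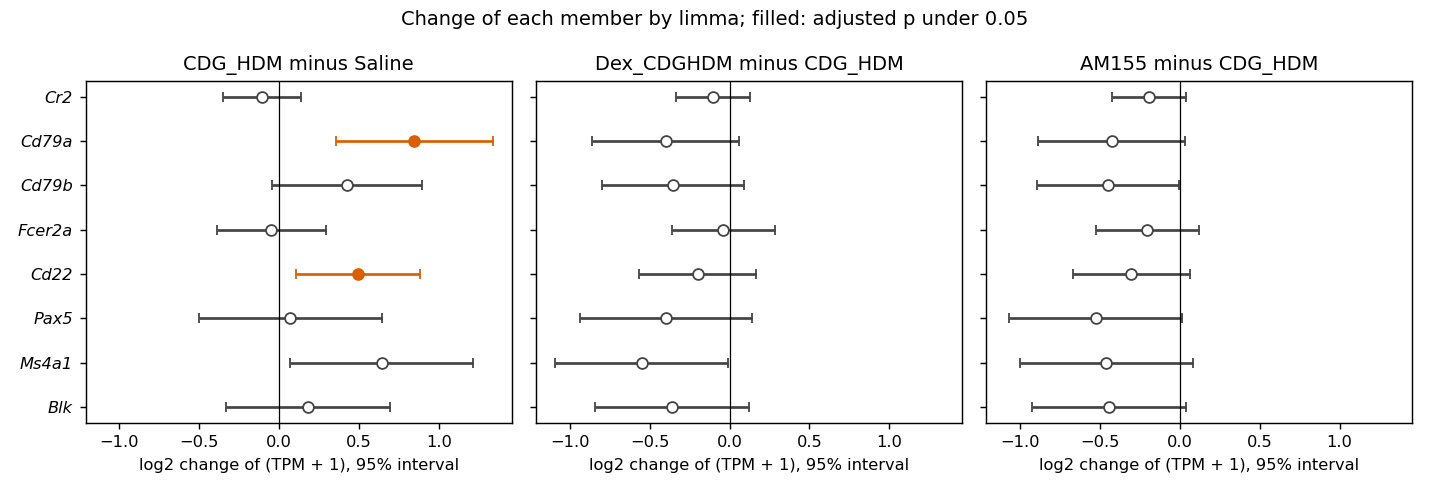
log2 change of (TPM + 1) with its 95% interval for the 8 genes for CDG_HDM over Saline and for each treated group over CDG_HDM, by limma over 27 libraries. Cd79a (0.85) and Cd22 (0.49) are filled, as the only points past the adjusted threshold. All 16 points of the treatment comparisons lie below 0, and both of those comparisons are set against the same 10 CDG_HDM libraries. Of all 17437 genes tested, 7789 lay above 0 in Dex_CDGHDM and 3071 in AM155 against CDG_HDM.

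The promoters of a pair that rose by the test, Cd79a and Cd22, and of a pair that did not, Pax5 and Cr2, are printed for their letters around the transcription start. Each window holds 250 bases before and 50 after a gene start, from RefSeq on GRCm38.p6 (mm10), 5′ to 3′ on the gene's strand. Windows were given for 5 of the 8 genes, Fcer2a with 3 starts, and none for Ms4a1, Cd79b or Blk. Capitals mark matches on either strand to motifs tied to B cell transcription in general: the octamer ATGCAAAT bound by Oct factors, GAGGAA (a form of the ETS core bound by PU.1 and Spi-B), CCCNNGGG (the core of the EBF1 palindrome) and CANNTG, the E-box bound by E2A.
Cd79a, chr7:24897247-24897546, + strand: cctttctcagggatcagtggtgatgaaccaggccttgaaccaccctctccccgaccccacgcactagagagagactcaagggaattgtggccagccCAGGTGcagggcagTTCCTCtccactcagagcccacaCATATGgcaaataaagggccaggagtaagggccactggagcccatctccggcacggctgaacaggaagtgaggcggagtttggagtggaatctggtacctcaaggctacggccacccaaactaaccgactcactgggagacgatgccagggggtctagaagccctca
Cd22, chr7:30878979-30879278, - strand: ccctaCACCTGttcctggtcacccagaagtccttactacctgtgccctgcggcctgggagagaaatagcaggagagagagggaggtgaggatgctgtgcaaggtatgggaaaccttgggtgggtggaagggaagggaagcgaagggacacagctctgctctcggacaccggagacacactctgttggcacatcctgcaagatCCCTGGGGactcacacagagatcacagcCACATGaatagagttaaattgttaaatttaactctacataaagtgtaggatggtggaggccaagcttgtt
Pax5, chr4:44710645-44710944, - strand: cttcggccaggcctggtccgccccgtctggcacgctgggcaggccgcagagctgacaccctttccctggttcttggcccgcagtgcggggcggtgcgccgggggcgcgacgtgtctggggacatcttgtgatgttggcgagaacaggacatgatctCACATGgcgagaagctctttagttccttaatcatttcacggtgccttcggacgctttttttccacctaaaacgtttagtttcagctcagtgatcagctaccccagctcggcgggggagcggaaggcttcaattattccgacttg
Cr2, chr1:195176670-195176969, - strand: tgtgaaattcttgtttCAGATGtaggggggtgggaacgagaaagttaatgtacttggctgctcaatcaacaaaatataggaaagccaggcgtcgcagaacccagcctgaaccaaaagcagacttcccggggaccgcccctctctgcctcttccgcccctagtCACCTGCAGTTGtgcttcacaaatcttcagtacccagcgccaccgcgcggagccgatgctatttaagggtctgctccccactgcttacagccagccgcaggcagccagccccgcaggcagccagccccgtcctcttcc

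Cd79a held 1 GAGGAA and 2 E-boxes, Cd22 held 1 EBF1 core and 2 E-boxes, Pax5 held 1 E-box and Cr2 held 3 E-boxes, a pair of which adjoin. None of the 4 windows held the octamer. These matches are common, since of 32851 RefSeq windows of the same length 1.74% held the octamer, 28.3% GAGGAA, 13.7% the EBF1 core and 72.3% an E-box. They describe letters in a window and no binding was measured.

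In the GENCODE M21 annotation of GRCm38, all 8 genes are protein-coding. Cd79a lies on chromosome 7 from 24897381 to 24902197, Cd22 on chromosome 7 from 30865402 to 30880342, Pax5 on chromosome 4 from 44524757 to 44710487 and Cr2 on chromosome 1 from 195136811 to 195176716. Cd79b lies on chromosome 11 from 106311341 to 106314762, Blk on chromosome 14 from 63372836 to 63417037, Ms4a1 on chromosome 19 from 11249675 to 11266241 and Fcer2a on chromosome 8 from 3681737 to 3694175. The RefSeq starts used for the promoter windows are not always the GENCODE gene ends. The Cd22 window lies inside the GENCODE gene, and the Pax5 window lies wholly upstream of it. Genes on the opposite strand overlap Ms4a1, Cd22 and Pax5. The libraries were stranded, but whether strand was used in quantification is not given in the sources used here.

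The treated groups were then set against CDG_HDM. In Dex_CDGHDM lungs none of the 8 genes passed the test, where 0.00573% of all genes did, and all 8 estimates were below 0. Over all 17437 genes tested, 7789 estimates were above 0 there. Ms4a1 averaged 9.40 ± 2.34 TPM in Dex_CDGHDM and 15.1 ± 7.02 TPM in CDG_HDM lungs (SD, n = 6 and 10), and its log2 change of -0.55 ± 0.27 (SE) had adjusted p = 1.00 and unadjusted p = 0.0469 by limma. It was the 1 gene of the 8 with an unadjusted p under 0.05, against 3.97% of all genes. The others ran from -0.40 for Cd79a to -0.04 for Fcer2a, with a median over the 8 of -0.36 and over all genes of -0.01. For Pax5, Ms4a1, Cd79b and Blk all 6 Dex_CDGHDM libraries lay below the CDG_HDM mean. That mean exceeded the CDG_HDM median for each of these genes, and the share of all genes with such a pattern was not computed. The highest Dex_CDGHDM level of Pax5 (13.8 TPM), Cd79b (50.7 TPM) and Blk (8.11 TPM) exceeded the CDG_HDM median (13.3, 47.7 and 7.67 TPM). The ranges overlapped for all 8, and the 95% intervals reach as low as -1.09 for Ms4a1, so these data leave room for a fall of that size.

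In AM155 lungs none of the 8 passed either, where 0.103% of all genes did. The estimates lay between -0.53 for Pax5 and -0.19 for Cr2, with a median of -0.43 against -0.08 over all genes. Only 3071 of all 17437 genes tested had an estimate above 0 in this comparison, so a shared negative sign is common there. Cd79b averaged 38.1 ± 15.1 TPM in AM155 and 51.2 ± 16.4 TPM in CDG_HDM lungs (SD, n = 6 and 10), a log2 change of -0.45 ± 0.22 (SE, adjusted p = 0.684 and unadjusted p = 0.0473 by limma). It was the 1 gene of the 8 with an unadjusted p under 0.05, against 7.24% of all genes. AM155 lungs differed widely among themselves, with Ms4a1 between 5.00 and 17.4 TPM and an SD of 5.61 TPM, against 7.02 TPM in CDG_HDM. The libraries AM155 5 and AM155 6 stood apart in circular RNA. They held the lowest level of the group for 2 and 5 of the 7 genes other than Cr2. AM155 5 also held the lowest Cr2, at 83.9 TPM. Without AM155 5, AM155 6 and Dex_CDGHDM 4, again none of the 8 passed in either comparison. The AM155 estimates then shrank, to between -0.19 for Pax5 and -0.03 for Cd22, with Ms4a1 at -0.05 and Blk at -0.06. Much of the size of the AM155 estimates thus came from AM155 5 and AM155 6. Their linear tables had the lowest sums of the group, 642987 and 542264 TPM. Without AM155 5, AM155 6 and Dex_CDGHDM 4 the median over all genes moved as well, from -0.08 to 0.02. With all libraries kept, the median over the 8 genes was -0.32 at 1 common sum. The part of library scaling in the shrinkage was not tested.

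Between the treated groups the 8 log2 differences of Dex_CDGHDM minus AM155 lay between -0.09 and 0.16, and none passed the test, where 0.0803% of all genes did. Their 95% intervals reached as low as -0.69 and as high as 0.73, so like levels are not shown. Against Saline, none of the 8 passed in Dex_CDGHDM lungs, where 25.1% of all genes did, and none in AM155 lungs, where 40.5% did. Cd79a had a log2 change of 0.45 ± 0.27 (SE) in Dex_CDGHDM and of 0.42 ± 0.27 in AM155 lungs against Saline lungs. Cr2 had the lowest adjusted p there. It averaged 96.3 ± 14.1 TPM in AM155 and 120 ± 24.4 TPM in Saline lungs (SD, n = 6 and 5), a log2 change of -0.30 ± 0.13 (SE, adjusted p = 0.0719 by limma), with all 6 AM155 libraries below the Saline mean. For Fcer2a, too, all 6 AM155 libraries lay below the Saline mean. Over all 17437 genes tested, 3715 estimates were above 0 in AM155 against Saline. Cr2 passed without Saline 2, AM155 3 or AM155 11 and came to -0.02 at 1 common sum. The comparisons with Saline share the same 5 Saline libraries.

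Across libraries the genes varied together, with Cr2 as the exception. After each group's mean was taken off log2(TPM + 1), the 15 pairs among Cd79a, Cd79b, Cd22, Blk, Ms4a1 and Pax5 had Pearson r between 0.85 and 0.98 over the 27 libraries, with a median of 0.94. Fcer2a followed them less closely, with r between 0.71 and 0.84. Cr2 had r between 0.18 and 0.33 with the 7 others. These values are descriptive, and the points share the library's scaling. In single libraries this shows as a common rank. CDG_HDM 4, Saline 8 and Dex_CDGHDM 1 held the highest level of their group for the 7 genes other than Cr2, and CDG_HDM 10 and Saline 4 held the lowest for the same 7. From the lowest to the highest library Cd79a spanned 6.65-fold, Pax5 6.46-fold, Ms4a1 6.45-fold, Fcer2a 3.01-fold and Cr2 1.78-fold.

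**Figure D3:**
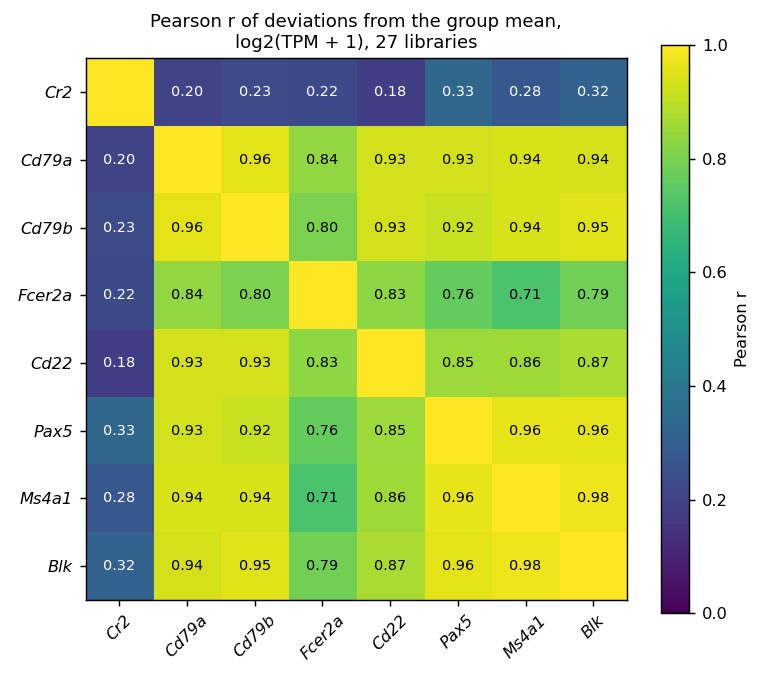
Pearson r between the 8 genes over 27 libraries, computed on deviations of log2(TPM + 1) from the group mean, with genes ordered by level. The pairs without Cr2 reach from 0.71 to 0.98, and the row of Cr2 from 0.18 to 0.33.

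Genes outside the set were ranked by how closely they followed it. By r with the mean standardized level of the 8, the first 10 of the genes tested included Bank1 (0.97), H2-Ob, Siglecg, Rhoh, Fcrl1, Bcl11a, Fcmr, Lrmp and Cd37 (0.94). Of the 10, 9 were again among the first 10 by Spearman's rho, and 8 within the 10 CDG_HDM libraries alone. The 2 genes nearest to Cr2 were Fam159b (0.79) and Ankrd60 (0.76), and its nearest member, Pax5, ranked 10853rd of all genes by r with Cr2. The 2 nearest to Fcer2a were Gpr174 and Zfp831, both at 0.95.

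The next question is whether the 8 genes moved by the same amount. Dividing each gene by Ms4a1 within a library removes the scaling of that library, and each ratio was compared between groups by an exact two-sided permutation test. Over 7 genes and 5 comparisons, 35 such tests were run, and their p-values are not adjusted. These tests were added after the values had been seen. A ratio shows unequal change and not which of its genes moved.

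Pax5 and Blk were lower relative to Ms4a1 in sensitized lungs. The Pax5 to Ms4a1 ratio ran from 0.782 to 1.26 in CDG_HDM lungs (median 1.01), below the 1.36 to 1.79 of Saline lungs (median 1.45), with no overlap. The log2 difference was -0.63 ± 0.098 (SE, n = 10 and 5, exact permutation p = 0.000333, the smallest that 3003 splits allow). It also lay below Saline without overlap in Dex_CDGHDM lungs, at 0.984 to 1.32 (-0.46 ± 0.11, exact permutation p = 0.00433), and in AM155 lungs, at 0.850 to 1.16 (-0.69 ± 0.10, exact permutation p = 0.00216, the smallest that 462 splits allow). Pax5 TPM alone did not separate any of these groups. Groups that do not overlap in this ratio were found for 0.912% of all genes in CDG_HDM against Saline (0.711% lower), 2.19% in Dex_CDGHDM against Saline (1.1% lower and 1.09% higher) and 1.72% in AM155 against Saline (0.964% lower). Most of those genes follow Ms4a1 less closely than Pax5 and Blk do (Pearson r = 0.96 and 0.98). A ratio to a closely followed gene varies less, so these shares are not a like background for Pax5 and Blk.

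The Blk to Ms4a1 ratio ran from 0.495 to 0.678 in CDG_HDM lungs, against 0.707 to 0.962 in Saline lungs. Again no CDG_HDM library reached the Saline range (log2 difference -0.50 ± 0.088, exact permutation p = 0.000333). In AM155 lungs, at 0.538 to 0.641, it was below Saline without overlap (-0.51 ± 0.081, exact permutation p = 0.00216), and in Dex_CDGHDM lungs, at 0.600 to 0.744, it was lower with overlap (-0.30 ± 0.088, exact permutation p = 0.0130). Leaving out any 1 library kept the p of both ratios in CDG_HDM against Saline at or below 0.000999. Groups without overlap stay apart when a library is removed, so this adds no support.

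Fcer2a and Cr2 were lower relative to Ms4a1 in CDG_HDM with overlap. The Fcer2a ratio had a median of 2.20 in CDG_HDM and 3.57 in Saline lungs (-0.75 ± 0.18, exact permutation p = 0.0110). The Cr2 ratio had a median of 8.42 in CDG_HDM and 11.8 in Saline lungs (-0.81 ± 0.30, exact permutation p = 0.0253), and missed 0.05 without Saline 4 (p = 0.0799) or Saline 5 (p = 0.0609). The ratios of Cd79a (exact permutation p = 0.198), Cd79b (0.0926) and Cd22 (0.397) did not pass 0.05 by this test. Cd79a relative to Ms4a1 was higher in Dex_CDGHDM lungs, at 3.77 to 5.34, than in Saline lungs, at 3.06 to 3.76, with ranges that adjoin but do not overlap (0.35 ± 0.093, exact permutation p = 0.00433).

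**Figure D4:**
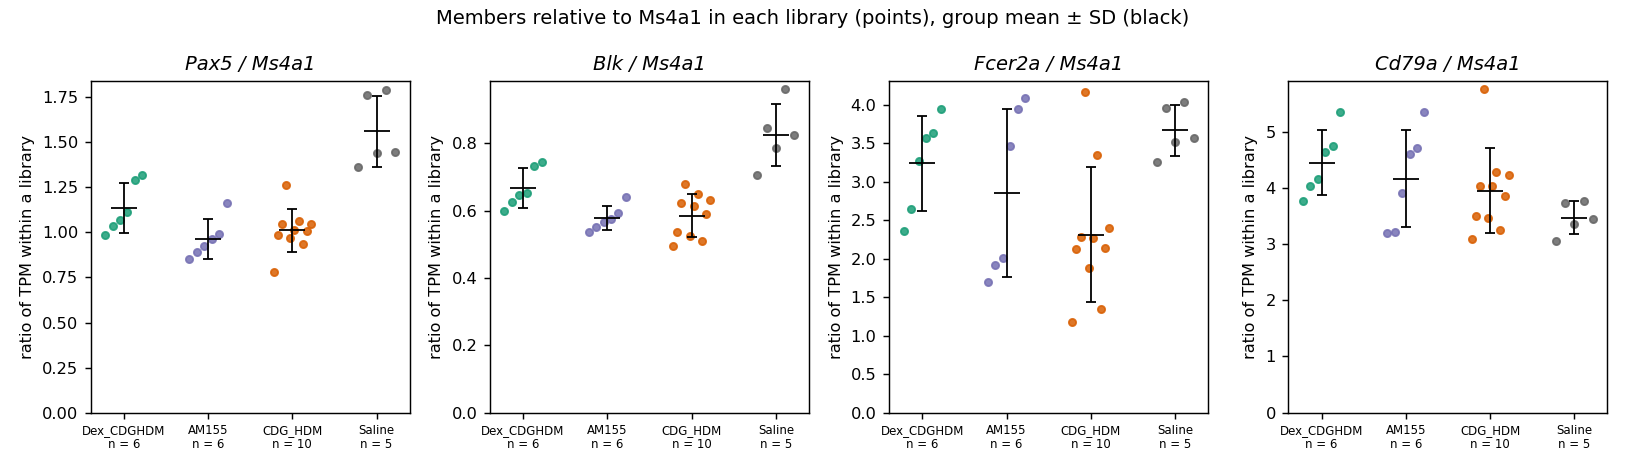
TPM of Pax5, Blk, Fcer2a and Cd79a divided by TPM of Ms4a1 in the same library, 1 point per library, with group mean and SD in black. All Dex_CDGHDM, AM155 and CDG_HDM points of Pax5 (0.782 to 1.32) lie below the lowest Saline point (1.36).

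The same question put to limma over 17436 genes, on log2(TPM + 1) minus that of Ms4a1, gave a different pair of calls. Fcer2a (-0.69 ± 0.32, SE, adjusted p = 0.0467) and Cr2 (-0.75 ± 0.32, adjusted p = 0.0375) were lower in CDG_HDM than in Saline lungs by that test, as were 63% of all genes, and 63.9% were called in either direction. Subtracting Ms4a1 puts its spread and its change into every gene, and moderation across genes treated that spread as known. On their own, Fcer2a and Cr2 changed by -0.05 and -0.11, and Ms4a1 by 0.64 without passing (adjusted p = 0.0814 by limma). The 2 calls thus carry mainly the change of Ms4a1 and are not read as a separate result. The Fcer2a call was lost in 12 of 15 fits that left out 1 library (any but CDG_HDM 10, CDG_HDM 13 and Saline 8, adjusted p up to 0.108), and the Cr2 call in 7 of 15 (CDG_HDM 3, 4, 8 and 14 and Saline 2, 4 and 5, adjusted p up to 0.151). Without CDG_HDM 10, Pax5 passed too (adjusted p = 0.0407). Pax5 had adjusted p = 0.0841 and Blk adjusted p = 0.158 there, with standard errors of 0.31 and 0.31 after moderation across genes, against 0.098 and 0.088 from the libraries alone. In Dex_CDGHDM against CDG_HDM none of the 7 passed by limma (0.0688% of all genes did), and in AM155 against CDG_HDM none (0.224% did).

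Between the treated groups and CDG_HDM the ratios overlapped for all 7 genes. Ratios without overlap were found for 0.0172% of all genes in Dex_CDGHDM against CDG_HDM and for 0.00574% in AM155 against CDG_HDM. In Dex_CDGHDM lungs Blk (0.19 ± 0.072, exact permutation p = 0.0270) and Fcer2a (0.55 ± 0.21, exact permutation p = 0.0357) were higher relative to Ms4a1 than in CDG_HDM lungs. The Blk value missed 0.05 without Dex_CDGHDM 4 (p = 0.0746) or 5 (p = 0.0726), and that of Fcer2a missed it without any 1 of Dex_CDGHDM 1, 4, 5 and 6 or CDG_HDM 3, 4, 5, 7 and 8 (p up to 0.0773). Without CDG_HDM 10, which had the lowest Ms4a1 of its group, the ratios of Cd79a, Cd79b, Pax5, Cd22 and Cr2 passed 0.05 as well. In AM155 against CDG_HDM, p lay between 0.303 and 0.849 for the 7 ratios.

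Other genes of the B cell lineage show where the 8 stand. The counts in each list below stand beside 9.35% of all genes called higher and 22.8% called lower in CDG_HDM against Saline lungs. In that comparison, 11 of 12 plasma cell genes rose and none fell, with a median log2 change of 1.41. Jchain, which joins IgA and IgM into multimers, lay between 1230 and 2623 TPM in Dex_CDGHDM, 1653 and 3236 TPM in AM155 and 1686 and 3453 TPM in CDG_HDM lungs, against 10.0 to 24.0 TPM in Saline lungs. Its ratio to Ms4a1 was 94.1 to 380 in CDG_HDM and 0.762 to 3.04 in Saline lungs. Mzb1, an endoplasmic reticulum protein of antibody-secreting cells, had a log2 change of 2.57 ± 0.17 (SE, adjusted p = 4.02e-12 by limma), and Eaf2, an elongation factor partner, one of 2.20 ± 0.14 (adjusted p = 2.22e-12).

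Genes of receptor signalling other than the 8 rose in 10 of 14 cases and fell in none, with a median of 0.65. Fcgr2b, the inhibitory Fc receptor, rose by 1.74 ± 0.13, the adaptor gene Blnk by 1.33 ± 0.17 and Plcg2, a phospholipase, by 0.96 ± 0.13 on the log2 scale (SE, adjusted p at most 1.52e-06 by limma). Of 18 other genes of the B cell surface and of antigen presentation, 9 rose and none fell, with a median of 0.41. They include Tnfrsf13b, the receptor TACI (1.58), Ly86, the partner of CD180 (1.23), and H2-Oa, which tempers peptide loading in B cells (1.20).

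Transcription factors of the lineage split, with 5 of 10 higher and 1 lower and a median of 0.33. The coactivator gene Pou2af1 (1.44), Irf8 (1.06) and Ikzf3 (0.90) rose, and Bach2, a repressor that holds back plasma cell differentiation, was lower, at 8.47 ± 1.30 TPM in CDG_HDM and 11.9 ± 2.11 TPM in Saline lungs (log2 change -0.44 ± 0.13, adjusted p = 0.00860 by limma). Of 10 germinal centre genes, 6 rose and none fell, with a median of 0.67, among them Gcsam (1.43), Mybl1 (1.04) and Basp1 (0.79). Of 7 precursor genes tested, Il7r was higher (0.87) and Cd93 lower (-1.02), and both are also made outside the B lineage. Of 11 factors that draw B cells or keep them alive, 8 rose and 1 fell, with a median of 0.65. The follicle chemokine Cxcl13 was among them (2.17 ± 0.18), as were Lta (1.21), the chemokine Ccl21a (0.86) and Tnfsf13b, the survival factor BAFF (0.33 ± 0.094, adjusted p = 0.00679). The 1 that fell, Il5 (-0.28, adjusted p = 0.0397), did not pass under any of the 3 other scalings. Each other gene of these lists named here as higher or lower kept its call under all of them.

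**Figure D5:**
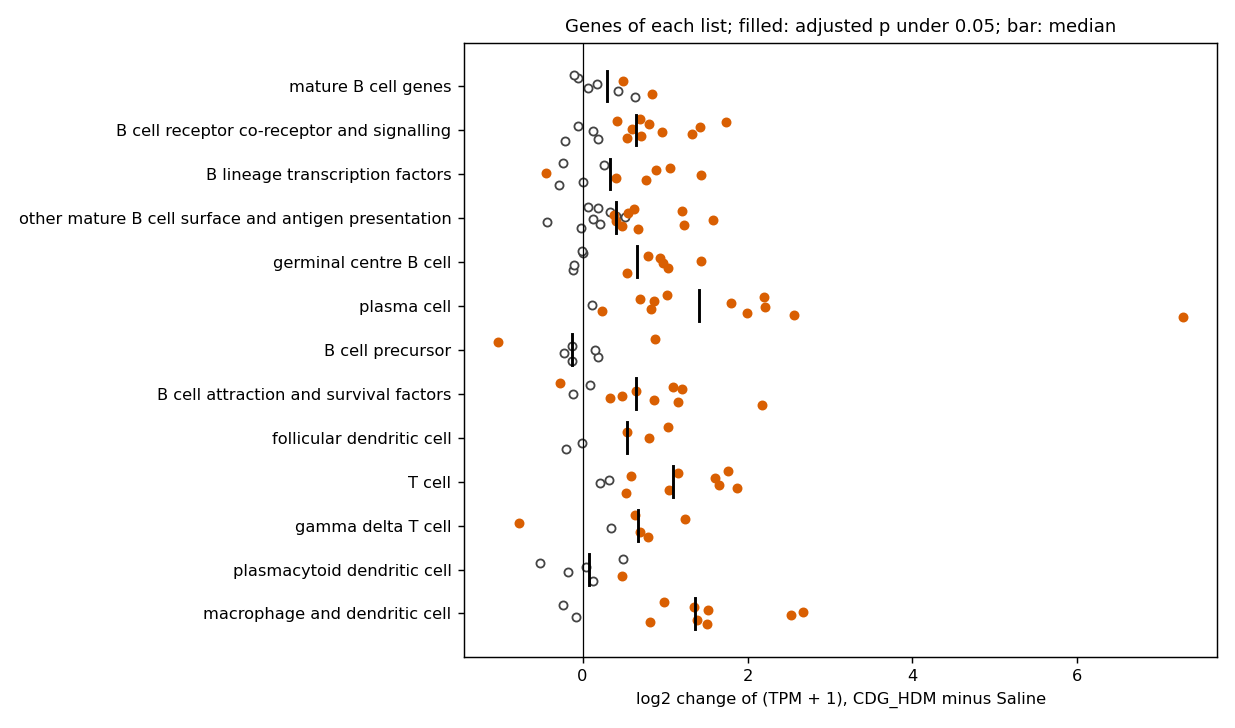
log2 change of (TPM + 1) in CDG_HDM minus Saline for each gene tested of 13 lists, with filled points past the adjusted threshold of 0.05 and a bar at the list median. The mature B cell genes have a median of 0.30, and the plasma cell genes one of 1.41 with Jchain at 7.28.

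Several of these genes are not particular to B cells, Fcgr2b, Plcg2, Irf8 and Ly86 among them, which macrophages and dendritic cells also express. Of 10 macrophage and dendritic cell markers, 8 rose, and their summed level was 615 to 1307 TPM in CDG_HDM and 259 to 283 TPM in Saline lungs. Of 10 T cell markers, 8 rose, with sums of 233 to 413 TPM in CDG_HDM and 88.2 to 152 TPM in Saline lungs. Cr2 and Fcer2a are also expressed by follicular dendritic cells, of whose markers 3 of 5 tested rose, with sums of 310 to 414 TPM in CDG_HDM and 258 to 293 TPM in Saline lungs. Madcam1 of that list stayed at or below 0.523 TPM in every library. Blk can be expressed by gamma delta T cells, of whose markers 4 of 6 rose and 1 fell (sums of 57.3 to 88.9 TPM in CDG_HDM and 60.5 to 77.2 TPM in Saline lungs). It can also be expressed, like Cd79b, by plasmacytoid dendritic cells, of whose markers 1 of 6 rose (227 to 288 TPM in CDG_HDM and 208 to 346 TPM in Saline lungs). The part of these cells in the levels of the 8 genes was not tested. In neither treated group did any gene of these 12 lists pass against CDG_HDM. Of all genes 0.00573% passed there in Dex_CDGHDM and 0.103% in AM155. Under each of the 3 other scalings 1 gene of the lists passed, Cd163l1 of the gamma delta T cell list, lower in Dex_CDGHDM.

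Of the 8 genes, the deposited table of circular RNA listed Pax5 and Cr2. Circular Pax5 was above 0 in 21 of 27 libraries, with medians of 1.10 TPM in Dex_CDGHDM, 0.537 TPM in AM155, 3.23 TPM in CDG_HDM and 1.21 TPM in Saline lungs. Its highest values, 10.6 and 9.25 TPM, were in CDG_HDM 4 and CDG_HDM 8, which also held the highest and next highest linear Pax5 of that group. Cr2 was listed at 0 in all 27 libraries.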

How the data were processed

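Linear and circular RNA were measured in 27 lung libraries. The deposited values are TPM, computed by the authors; per the submitters' processing notes, mm10 and CASAVA 1.9 were used; neither the aligner nor the quantifier is given in the sources used here. The labels' protocols describe ribosome-depleted, stranded, paired-end libraries, and read length is given there in conflicting ways. Columns were matched to samples by the labels, and groups taken from titles. The labels do not say in words that replicates are separate mice, and p-values measure the spread between these samples only.

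Here limma 3.58.1 (R 4.3.3) was run on log2(TPM + 1) for the 17437 genes at 1 TPM or more in 5 or more libraries, all 4 groups in 1 fit with trend, Benjamini-Hochberg over all genes, and checked on simulated data. That check required recovery only of 4-fold changes in genes simulated as independent. It does not bear on the smaller changes of the 8 genes, which vary together. Fold changes on this scale understate low genes. Samples with the same number in their titles were not treated as pairs. Members and lists were chosen with earlier results of these data known. Named genes are all 8 members, up to 3 per other list by smallest adjusted p in CDG_HDM minus Saline, plus Jchain, Cxcl13 and Tnfsf13b, and the nearest genes by r; 1 gene that these rules name is not reported here. Alternatives were 2 pseudocounts, no filter, 3 scalings, robust moderation, the 2 compared groups alone, a replicate block and each library left out. Added after seeing the data were leaving out 3 libraries rich in circular Sftpc and the exact tests of ratios. Immunoglobulin and T cell receptor genes were not analysed here.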

Additional observations from a re-analysis of the deposited data

Results flagged for a closer look

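Of the 32 combinations of gene and group tested for a sample far from the others, 1 was flagged, and chance flags about 1 in 20. Fcer2a in Dex_CDGHDM 1 was 40.6 TPM, against 30.6 TPM in the nearest of the other 5 Dex_CDGHDM libraries. The gap was 0.633 of the group's whole range, just past the 95% limit of Dixon's test for 6 samples. The same library held the highest level of its group for the 7 genes other than Cr2.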

How the results depend on the processing

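Over 118 results and 2557 values under other settings, 94 values in 29 results had the opposite sign; they concern small differences, and none passed its test. Of the comparisons of level, Cd79a in CDG_HDM over Saline passed under every alternative run, with log2 changes between 0.63 and 1.05 over all of them, and Cd22 kept its sign under all. In CDG_HDM over Saline the number of the 8 genes called was 1 with no filter or with robust variance moderation, 4 when the linear table was rescaled to 1 common sum, and between 1 and 3 when 1 library was left out. In AM155 over Saline 1 gene (Cd79a) was called at 1 common sum, and 0 to 1 when 1 library was left out. Relative to Ms4a1, the limma count in CDG_HDM over Saline was 1 with no filter, 0 with only those 2 groups in the fit, and 0 to 3 when 1 library was left out; in Dex_CDGHDM over CDG_HDM it was 0 to 1. The counts of 0 in the other comparisons of level and of limma ratios stayed at 0 under every alternative run. The cause of these moves was not tested.

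Signs that turned with the scaling were as follows, on the log2 scale. In CDG_HDM over Saline, Fcer2a came to 0.066 by median of ratios, 0.036 by quantiles and 0.11 at 1 common sum, and Cr2 to 0.0085 by median of ratios and 0.054 at 1 common sum. In Dex_CDGHDM over CDG_HDM, Fcer2a came to 0.0026 at 1 common sum. In Dex_CDGHDM over Saline, Fcer2a came to 0.039, 0.016 and 0.11 under the 3 scalings, and Blk to 0.00072 at 1 common sum. In AM155 over Saline, Cd79b came to 0.17, 0.15 and 0.25, and Fcer2a to 0.020 at 1 common sum. In Dex_CDGHDM over AM155, Cd79a came to -0.044, -0.049 and -0.046, and Cr2 to -0.0066 by quantiles. In AM155 over CDG_HDM, Blk relative to Ms4a1 came to -0.0094 with a pseudocount of 0.1 by limma, and its exact ratio to 0.019 with a pseudocount of 1.

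Without AM155 5, AM155 6 and Dex_CDGHDM 4, a choice made after seeing the data, the following signs turned. Fcer2a came to 0.0081 in Dex_CDGHDM over CDG_HDM. In AM155 over Saline Cd79b came to 0.31, Blk to 0.12 and the Cd22 ratio to -0.17. In Dex_CDGHDM over AM155 Cd79a came to -0.17, Cd79b to -0.15, Pax5 to -0.18, Blk to -0.25 and Cd22 to -0.083. In AM155 over CDG_HDM relative to Ms4a1, limma gave -0.073 for Cd79a, -0.065 for Cd79b, -0.015 for Blk and -0.054 for Cr2, and the exact ratios were -0.077 for Cd79a, -0.069 for Cd79b and -0.056 for Cr2.

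When 1 library was left out, signs turned within these ranges. In CDG_HDM over Saline, Pax5 lay between -0.17 and 0.29 and Fcer2a between -0.27 and 0.12. In Dex_CDGHDM over CDG_HDM, Fcer2a lay between -0.13 and 0.0081. In Dex_CDGHDM over Saline, Ms4a1 lay between -0.097 and 0.26, Cd79b between -0.068 and 0.26, Fcer2a between -0.30 and 0.079 and the Cd79b ratio between -0.097 and 0.039. In AM155 over Saline, Ms4a1 lay between -0.0081 and 0.35, Cd79b between -0.16 and 0.16 and the Cd22 ratio between -0.076 and 0.092. In Dex_CDGHDM over AM155, Ms4a1 lay between -0.26 and 0.064, Cd79a between -0.11 and 0.18, Cd79b between -0.050 and 0.23, Pax5 between -0.032 and 0.26, Blk between -0.078 and 0.22 and Cd22 between -0.010 and 0.20. In AM155 over CDG_HDM, limma relative to Ms4a1 gave Cd79a between -0.026 and 0.094, Cd79b between -0.026 and 0.048 and Blk between -0.0079 and 0.046. The exact ratios lay between -0.0066 and 0.14 for Cd79a, -0.0055 and 0.095 for Cd79b and -0.044 and 0.011 for Blk.

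Same-numbered samples deviated together (r over 0.1) in 2 of 20 pairs, the highest at 0.27, so they were not treated as pairs. Whether same-numbered samples shared a batch was not tested. With the replicate number as a block, 1 of the 8 genes passed in CDG_HDM over Saline (Cd79a, 1.02, adjusted p = 0.0144 by limma) and the Cd22 call was lost (0.58, adjusted p = 0.0653), 1 passed in AM155 over Saline (Cr2, -0.42, adjusted p = 0.0406), and Ms4a1 in Dex_CDGHDM over AM155 came to 0.056. TPM holds no read count, so what depth limits is unknown.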
